A study of Mus musculus with 2 samples.

Results

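The 10 genes described here encode the core of the cellular oxygen-sensing pathway: the HIF subunits Hif1a and Arnt, the hydroxylases Egln1, Egln2, Egln3 and Hif1an, the ubiquitin ligase subunit Vhl, and the HIF target genes Vegfa, Bnip3 and P4ha1. They were taken by name from the 45318 genes of the deposited count table, and all 10 were found. They were chosen by gene name, with the log2 ratios of these same libraries already known, so the values below are a description with no test. Egln3 stood 8.397-fold lower in the library from brequinar-treated mice, Bnip3 and P4ha1 stood 1.84-fold and 1.62-fold lower, and the other 7 members lay within 1.22-fold of their vehicle level.

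The cells were mouse leukaemia cells of strain C57Bl/6 driven by MLL/AF9, an oncogenic gene fusion found in acute myeloid leukaemia, and they also carried GFP, by which they were sorted from bone marrow. Leukaemic mice had received vehicle in 1 group and brequinar, an inhibitor of the pyrimidine synthesis enzyme dihydroorotate dehydrogenase, in the other. Both groups share the fusion, the GFP label, the strain and the tissue, and each is represented by 1 poly(A)-selected RNA library, so no difference has a replicate check. The sources used here do not give the dose, the duration, the animals' age or how many animals went into a library.

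HIF is a transcription factor made of an oxygen-labile alpha subunit and the stable partner Arnt. In the presence of oxygen, prolyl hydroxylases of the Egln family mark the alpha subunit, and Vhl then recruits it for destruction, while Hif1an blocks its coactivator contacts by hydroxylating an asparagine. When oxygen falls, the alpha subunit persists and switches on genes of glycolysis, blood vessel growth and mitochondrial turnover, and also Egln1 and Egln3 themselves. Much of this control acts on protein, which these RNA measurements do not see. Bone marrow, where these cells grew, is known as a tissue of low oxygen.

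The vehicle library held 47935476 gene counts and the brequinar library 47950714. A single count was worth 0.0202 and 0.0215 normalised CPM (counts scaled to library size by TMM), respectively. The 11504 genes whose mean over the libraries reached 1 CPM are called measured here. Of these, 6.45% were higher by 2-fold or more in the brequinar library, 4.40% were lower by as much, and 10.8% lay beyond 2-fold in either direction. All 9 markers of leukaemia and haematopoietic cells were measured, and Hoxa9 and Meis1, transcription factor genes of this leukaemia, were within 2-fold. Of these 9 markers 4 were lower by 2-fold or more with brequinar: Mpo (6.04-fold), Cd34 (2.87-fold), Cebpa (2.49-fold) and Kit (2.36-fold). The summed level of the 9 was 7293 and 2470 CPM, of which Mpo held 5912 and 979 CPM. All 12 markers of maturing neutrophils were higher by 2-fold or more with brequinar (summed level 1461 and 24106 CPM), as were 13 of 13 measured erythroid markers (84.7 and 295.1 CPM, all 15 summed) and 8 of 10 measured macrophage markers (640 and 928 CPM, all 11 summed). Most of the macrophage sum was held by the 2 measured markers within 2-fold, Vcam1 (370 and 496 CPM) and Adgre1 (221 and 225 CPM). None of the neutrophil, erythroid and macrophage markers was at 0 in either library. The part of all these marker lists in the differences below, that of Egln3 included, was not tested, and in such bulk libraries fewer cells of a type and less RNA per cell cannot be told apart.

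**Figure D1:**
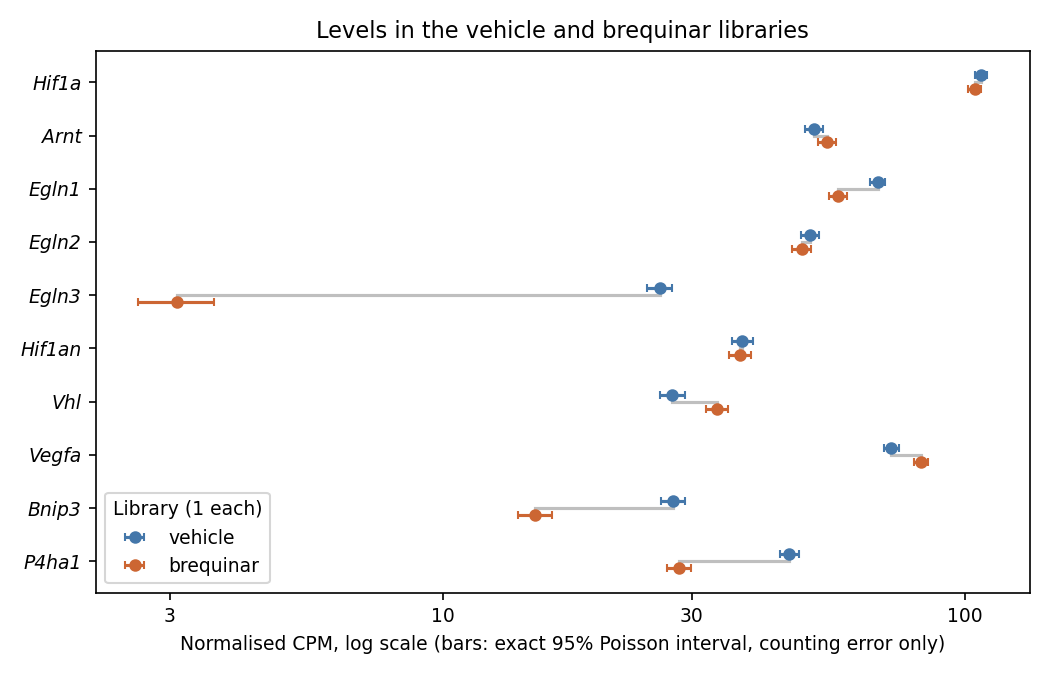
Normalised CPM (log axis) of each gene in the vehicle (blue) and brequinar (orange) library, 1 library per group, with exact 95% Poisson intervals that cover counting error only. Egln3 shows the widest gap (26.03 and 3.10 CPM), followed by Bnip3 and P4ha1, while the points of Hif1a, Egln2 and Hif1an nearly coincide.

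The subunits of HIF differed little. Hif1a, the oxygen-labile alpha subunit (ENSMUSG00000021109.10, chromosome 12, 73901375 to 73947530, plus strand, GRCm38), had 5317 counts with vehicle and 4853 with brequinar, or 107 and 104 CPM. Its log2 ratio of brequinar over vehicle was -0.04, and the 95% interval for counting error (-0.10 to 0.02) included 0. Arnt, the constitutive partner (ENSMUSG00000015522.15, chromosome 3, 95434388 to 95497240, plus strand), had 2547 and 2532 counts, or 51.5 and 54.5 CPM. Its log2 ratio of 0.08 turned to -0.009 with scaling by total counts, so no direction can be given for it.

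The other alpha subunits were scarce. Epas1, the second oxygen-regulated alpha subunit, had 20 and 8 counts and did not reach 1 CPM. Hif3a, a related alpha subunit, had 296 and 375 counts (5.98 and 8.07 CPM). Levels of different genes were compared per kb of merged exons. On this scale Hif1a made up 94.98% of the summed alpha subunit level with vehicle and 93.5% with brequinar, and Hif3a made up 4.65% and 6.35%. Arnt2, a paralogue of Arnt best known from neural tissue, had 0 counts in both libraries, which allows up to 0.0606 and 0.0646 CPM (3 counts).

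Among the hydroxylases, the largest difference was that of Egln3. Egln3 encodes an oxygen-dependent prolyl hydroxylase whose gene is itself a strong HIF target in many cell types (ENSMUSG00000035105.5, chromosome 12, 54178981 to 54203860, minus strand). It had 1288 counts with vehicle and 144 with brequinar, or 26.03 and 3.10 CPM. The brequinar level was 8.397-fold lower (interval 7.06 to 10.05, counting error only), a log2 ratio of -3.05. Of the 11504 measured genes, 28 had a lower log2 ratio. Egln3 was the 1 member of 10 beyond 2-fold, beside the 4.40% of all measured genes that were at least 2-fold lower.

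Its paralogues did not share this gap. Egln1, the main HIF prolyl hydroxylase in most tissues (ENSMUSG00000031987.5, chromosome 8, 124908587 to 124949324, minus strand), had 3366 and 2656 counts, or 68.0 and 57.2 CPM. It was 1.19-fold lower (interval 1.13 to 1.25). Egln2, the family member least tied to induction by hypoxia (ENSMUSG00000058709.8, chromosome 7, 27158658 to 27166802, minus strand), had 2497 and 2262 counts, or 50.5 and 48.7 CPM, and its log2 ratio of -0.05 had an interval of -0.13 to 0.03. Hif1an, the asparaginyl hydroxylase also called factor inhibiting HIF (ENSMUSG00000036450.4, chromosome 19, 44562850 to 44576274, plus strand), stood at 37.5 and 37.1 CPM, with a log2 ratio of -0.02 (interval -0.11 to 0.08).

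The make-up of the Egln family therefore differed between the libraries. Per kb of merged exons, Egln3 made up 20.9% of the summed level of Egln1, Egln2 and Egln3 with vehicle and 3.38% with brequinar. Egln1 held 40.5% and 46.2%, and Egln2 held 38.6% and 50.5%. The summed level of the family was 46.7 and 34.5 CPM per kb, 1.36-fold lower in the brequinar library. The order of Egln1 and Egln2 in the vehicle library depended on the gene length used, while Egln3 was the lowest of the family under both lengths in both libraries.

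Vhl, which encodes the substrate receptor that binds hydroxylated alpha subunits (ENSMUSG00000033933.10, chromosome 6, 113623959 to 113631633, plus strand), was slightly higher in the brequinar library. It had 1363 and 1558 counts, or 27.5 and 33.5 CPM, a log2 ratio of 0.28 (interval 0.18 to 0.39). The subunits that form a ubiquitin ligase with Vhl lay to the same side. Elongin C (Eloc) stood at 88.6 and 122 CPM, elongin B (Elob) at 111 and 146 CPM, the scaffold Cul2 at 42.04 and 47.6 CPM, and the RING subunit Rbx1 at 108 and 125 CPM. None of these differences reached 2-fold.

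**Figure D2:**
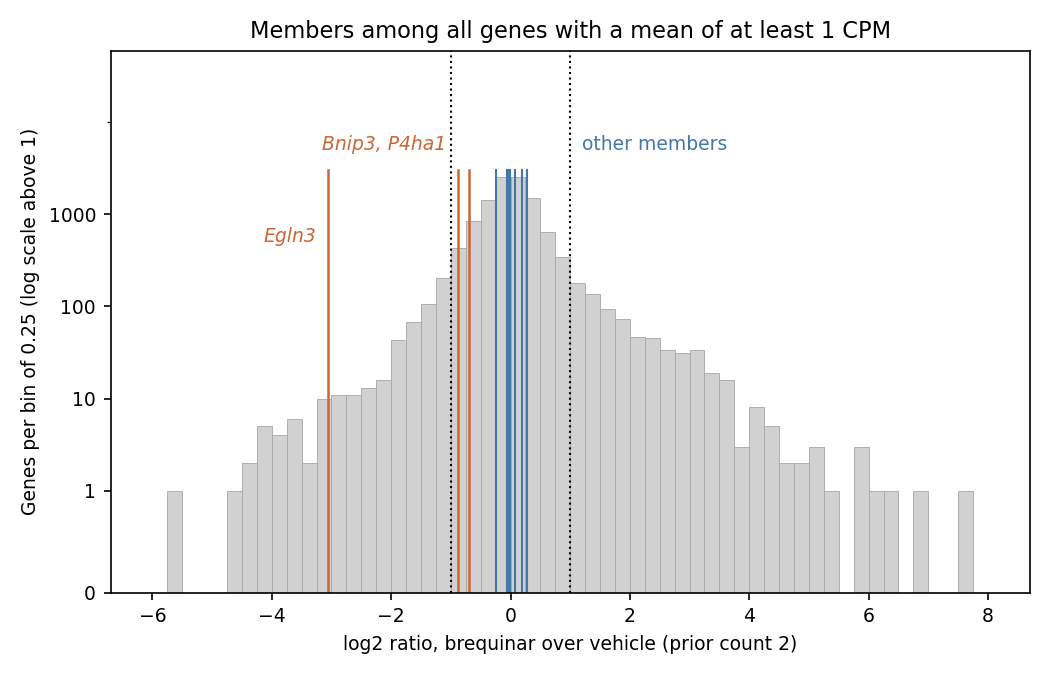
Number of genes per bin of 0.25 in log2 ratio (brequinar over vehicle; vertical axis on a log scale above 1) for the 11504 measured genes, with the members as vertical lines and dotted lines at 2-fold. Egln3 lies in the left tail at -3.05, Bnip3 (-0.88) and P4ha1 (-0.70) lie inside the 2-fold limit, and the other 7 members (blue) lie near the centre.

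The target genes among the members did not all lie on the same side. Bnip3 encodes a mitochondrial outer membrane protein that acts in mitophagy and cell death and is induced by HIF (ENSMUSG00000078566.5, chromosome 7, 138890836 to 138909519, minus strand). It had 1369 counts with vehicle and 699 with brequinar, or 27.7 and 15.0 CPM, and was 1.84-fold lower (interval 1.68 to 2.02). Of the measured genes, 677 had a lower log2 ratio than its -0.88. P4ha1 encodes the catalytic subunit of collagen prolyl hydroxylase, an enzyme of the same oxygen-dependent class as the Egln proteins but with collagen as its substrate (ENSMUSG00000019916.11, chromosome 10, 59323296 to 59373304, plus strand). It had 2281 and 1318 counts, or 46.1 and 28.4 CPM, and was 1.62-fold lower (interval 1.52 to 1.74).

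Vegfa, the angiogenic growth factor and a textbook HIF target (ENSMUSG00000023951.13, chromosome 17, 46016993 to 46032369, minus strand), lay on the other side. It had 3577 and 3832 counts, or 72.3 and 82.5 CPM, a log2 ratio of 0.19 (interval 0.12 to 0.26). Vegfa thus differed from Egln3, Bnip3 and P4ha1 in direction, by a margin of less than 2-fold from its own vehicle level.

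The members were also put in order by their level per kb of merged exons. In the vehicle library Egln1 (18.9 CPM per kb), Hif1a (18.2), Egln2 (18.02) and Vegfa (16.9) stood close together at the top, and Egln3 (9.78) and Vhl (9.19) were neighbours. In the brequinar library Vegfa (19.3) was the highest and Egln3 (1.16) the lowest, below Hif1an (5.61). With 1 library per group the spread between animals is unknown, and the order of close neighbours also changed with the gene length used.

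**Figure D3:**
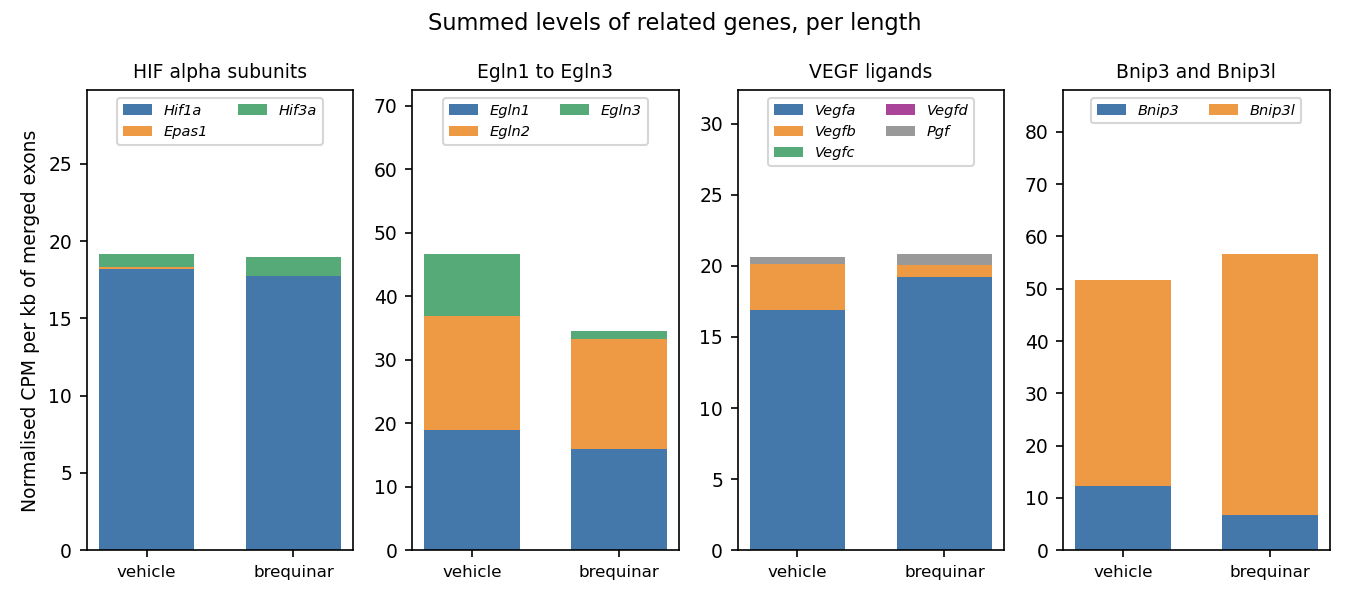
Summed level of related genes, as normalised CPM per kb of merged exons, stacked by gene in each library (1 library per group, no error bar). Egln3 makes up 20.9% of its family with vehicle and 3.38% with brequinar, Vegfb 15.7% and 3.92% of the VEGF ligands, and Bnip3 23.7% and 11.7% of Bnip3 plus Bnip3l, while Hif1a makes up nearly the whole alpha subunit level in both.

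The stretches of genome just upstream of the transcription start are shown for the 3 members with the lowest ratios, and for Egln1, a paralogue of Egln3 that is itself a known HIF target and was within 2-fold, because HIF binds a short core motif, ACGTG or GCGTG, in the DNA near its target genes. The choice was made after the values were seen. Capitals mark each match of either motif on either strand (CACGT and CACGC are their reverse complements, and CACGTG reads as ACGTG on both strands). Each sequence runs 5′ to 3′ on the gene's strand, from RefSeq (GRCm38.p6), and leaves out bases annotated as exon.
Egln3 (chr12:54203875-54204124, minus strand): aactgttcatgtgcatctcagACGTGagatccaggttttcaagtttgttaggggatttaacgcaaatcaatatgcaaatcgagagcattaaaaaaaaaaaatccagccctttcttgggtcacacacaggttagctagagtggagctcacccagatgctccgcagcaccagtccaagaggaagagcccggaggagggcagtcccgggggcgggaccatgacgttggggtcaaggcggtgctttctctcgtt
Bnip3 (chr7:138909520-138909756, minus strand): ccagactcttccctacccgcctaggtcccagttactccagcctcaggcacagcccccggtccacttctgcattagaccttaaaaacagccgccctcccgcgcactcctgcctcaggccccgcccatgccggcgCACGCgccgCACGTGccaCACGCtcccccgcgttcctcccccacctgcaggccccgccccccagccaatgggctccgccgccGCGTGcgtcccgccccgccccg
P4ha1 (chr10:59323046-59323295, plus strand): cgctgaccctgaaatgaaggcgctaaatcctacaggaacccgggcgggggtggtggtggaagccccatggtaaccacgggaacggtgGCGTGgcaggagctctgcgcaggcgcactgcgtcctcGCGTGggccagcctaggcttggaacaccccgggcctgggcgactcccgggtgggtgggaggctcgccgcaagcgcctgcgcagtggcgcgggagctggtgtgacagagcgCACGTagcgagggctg
Egln1 (chr8:124949325-124949504, minus strand): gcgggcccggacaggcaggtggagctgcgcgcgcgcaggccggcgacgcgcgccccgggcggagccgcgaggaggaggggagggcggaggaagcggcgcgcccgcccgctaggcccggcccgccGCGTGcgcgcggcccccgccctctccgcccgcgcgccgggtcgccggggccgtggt

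Egln3 has 1 match in its 250 upstream bases, at 229 bases before the start, Bnip3 has 5 (counting CACGTG on both strands), P4ha1 has 3, and Egln1 has 2, of which 1 lies in the part shown. Of the members not shown, Egln2 (log2 ratio -0.05) has 4 matches in its first window and 1 in its second. Hif1a (-0.04) has 3, Arnt (0.08) has 1, and the second window of Vegfa (0.19) has 2. The part of such matches in the ratios was not tested. Over the 12 upstream windows listed for the 10 members, 9 hold a match, and the windows of Hif1an and Vhl and the first of the 2 windows of Vegfa hold none. A match is found in 38.6% of the 32851 such windows of 250 bases that RefSeq gives, and in 44.0% of the 21263 windows of protein-coding genes. The motif is short and common in GC-rich DNA, so a match is a description of the sequence and does not mark a HIF site.

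Genes near the 3 lower members are described by their median and by calls at 2-fold. Within 500000 bases on either side of Egln3, 2 genes were measured, and their median log2 ratio was 0.08. Around Bnip3 there were 6 such genes with a median of 0.31, and around P4ha1 there were 4 with a median of 0.39. None of these 12 neighbours was beyond 2-fold in either direction, beside 10.8% of all measured genes. So few genes cannot be told apart from that share.

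Among 15 measured HIF subunits and regulators outside the members (18 listed), none was beyond 2-fold, beside 10.8% of all measured genes. A list of 15 genes is too short to tell this from that share. The median log2 ratio was 0.12, beside 0.00 over all measured genes. The chaperone gene Hsp90ab1, whose product stabilises the alpha subunit, had the largest absolute ratio (3119 and 1737 CPM, log2 ratio -0.84). Rack1, which competes with that chaperone, stood at 2373 and 1642 CPM, and Os9 at 280.4 and 198 CPM. The coactivator genes Ep300 (101 and 109 CPM) and Crebbp (39.5 and 42.3 CPM), and Cited2 (104 and 105 CPM), whose product competes with HIF for both, differed little.

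Wider HIF target genes were spread to both sides. Of 63 listed targets outside the members, 49 were measured, and 5 of these (10.2%) were at least 2-fold lower and 3 (6.12%) at least 2-fold higher. The median log2 ratio was 0.09. Sugar and energy metabolism gave 2 lower and 1 higher of 22, and the other targets 3 lower and 2 higher of 27. Over all measured genes 4.40% were lower and 6.45% higher by as much.

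**Figure D4:**
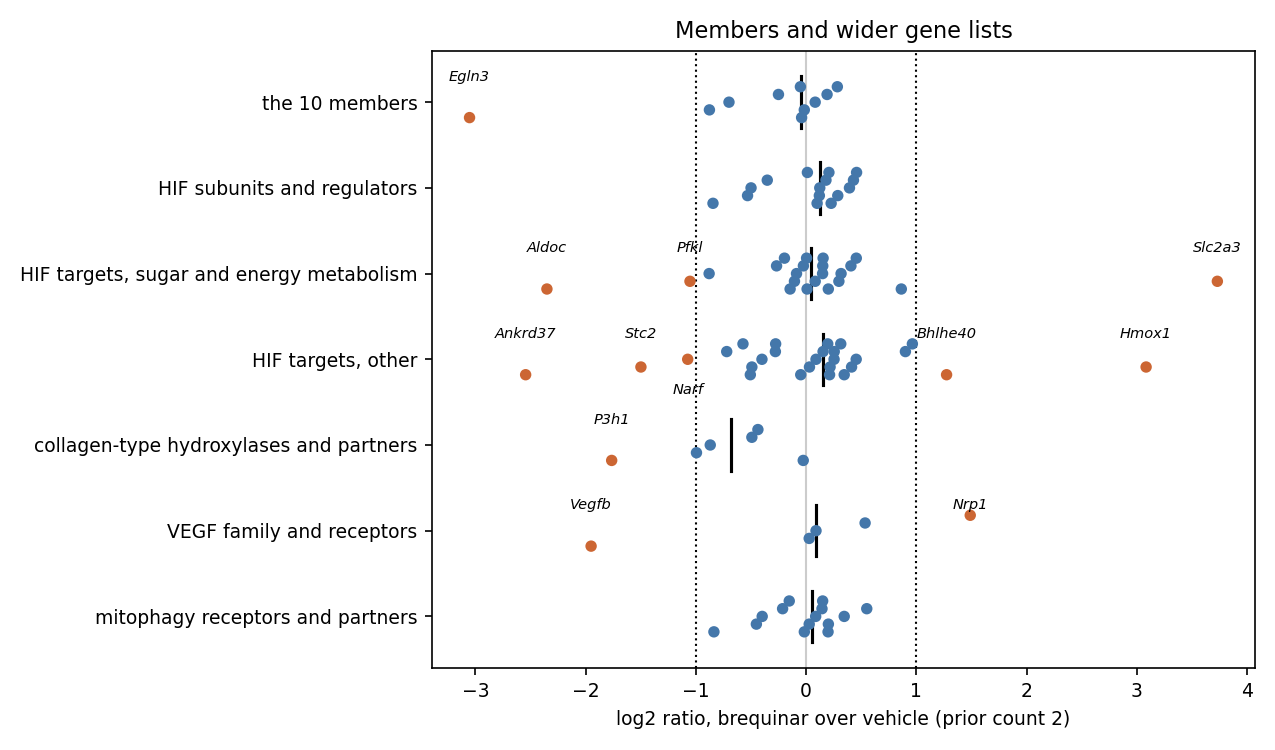
Log2 ratio (brequinar over vehicle) of each measured gene in the 10 members and the 6 wider lists, with black bars at list medians, dotted lines at 2-fold and orange points for genes beyond it. Target genes lie on both sides of 0, from Ankrd37 (-2.54) to Slc2a3 (3.73), and all 6 measured collagen-type hydroxylases and partners lie below 0.

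Of the measured targets, 5 were at least 2-fold lower, as Egln3 was. The part of the marker lists in these values was not tested. Ankrd37, an ankyrin repeat protein, had 128 and 19 counts (2.59 and 0.409 CPM) and was 6.32-fold lower (interval 3.89 to 10.8). Aldoc, the brain-type aldolase, had 253 and 45 counts (5.11 and 0.969 CPM) and was 5.28-fold lower (interval 3.83 to 7.42). Stc2, a secreted glycoprotein that is also a stress response gene, stood at 8.41 and 2.95 CPM. Narf (47.9 and 22.7 CPM) and Pfkl, the liver-type phosphofructokinase (119 and 57.4 CPM), lay just beyond the 2-fold limit, with intervals of 1.96 to 2.27-fold and 1.98 to 2.17-fold lower that included it. Ak4, a mitochondrial adenylate kinase, had 58 and 18 counts but a mean below 1 CPM.

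Just inside the limit, Pdk1, a kinase that inhibits pyruvate dehydrogenase, stood at 58.7 and 31.9 CPM (log2 ratio -0.88), close to the ratio of Bnip3. Farther from the limit, the carbonic anhydrase gene Car9, a clinical marker of hypoxia, stood at 18.9 and 11.4 CPM (-0.72, 1.65-fold lower). The histone demethylase gene Kdm3a, farther still, stood at 45.9 and 34.8 CPM (-0.40).

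The targets on the higher side were led by Slc2a3, a glucose transporter that also belongs to mature neutrophils, with 302 and 3788 counts (6.10 and 81.5 CPM). Slc2a3 was 13.4-fold higher (interval 11.9 to 15.1). Hmox1, the haem-degrading enzyme that is abundant in macrophages, had 315 and 2523 counts (6.37 and 54.3 CPM) and was 8.53-fold higher (interval 7.59 to 9.62). Bhlhe40, a transcriptional repressor, stood at 8.14 and 19.8 CPM. The neutrophil and macrophage markers given above were higher in the same library, and their part in these values was not tested. Ndrg1 (24.2 and 47.3 CPM, log2 ratio 0.96), Fam162a (38.0 and 71.1 CPM, 0.90) and Pfkfb4, a regulator of glycolysis (20.3 and 36.96 CPM, 0.86), lay just inside the limit.

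Several classical targets were well within 2-fold. Ldha, lactate dehydrogenase A, stood at 910.3 and 916 CPM, Ero1l, an oxidase of the endoplasmic reticulum, at 228 and 233 CPM, and Hk2, hexokinase of the outer mitochondrial membrane, at 129 and 117 CPM. Pgk1, phosphoglycerate kinase, was slightly higher with brequinar (498 and 612 CPM, log2 ratio 0.30, interval 0.27 to 0.32). The glucose transporter Slc2a1 was slightly lower (31.8 and 26.4 CPM, -0.27, interval -0.38 to -0.16). Epo, Lox and Edn1 had 0 counts in both libraries, and Adm had 1 and 0.

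Most measured collagen-modifying enzymes were lower, as P4ha1 was. All 6 measured genes of that list (12 listed) lay below 0 in log2 ratio (median -0.68), beside 5746 of all 11504 measured genes. Of the 6, 1 was at least 2-fold lower, beside 4.40% of all measured genes. One of the 6, Ogfod1, which hydroxylates a ribosomal protein and not collagen, was level (55.8 and 54.8 CPM, log2 ratio -0.03, interval -0.10 to 0.05). The gene beyond 2-fold was P3h1, a prolyl 3-hydroxylase (12.7 and 3.70 CPM, 3.42-fold lower, interval 2.89 to 4.08). Crtap, its partner in the same complex, stood at 18.3 and 9.17 CPM (log2 ratio -0.99) and passed the limit with scaling by total counts. The lysyl hydroxylase genes Plod3 (237 and 130 CPM) and Plod1 (75.3 and 53.5 CPM) and P4hb, the beta subunit that pairs with P4ha1 (1472 and 1087 CPM), were within 2-fold. Nearly all counts of collagen prolyl hydroxylase alpha subunits were those of P4ha1, since P4ha2 had 7 and 0 counts and P4ha3 had 0 in both. Of 9 markers of stromal cells, which produce much of the body's collagen, 8 had a mean below 1 CPM, and Sp7 was at 0 in both libraries. The summed level of the list was 8.97 and 5.58 CPM, of which Pdgfrb held 6.93 and 2.50 CPM, while Lepr (4 and 31 counts) and Col1a1 (16 and 47 counts) lay on the higher side at low levels. Their part in the collagen-modifying genes was not tested.

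Within the VEGF family, 5 of 9 listed genes were measured. Of these, 1 was at least 2-fold lower and 1 higher, beside 4.40% and 6.45% of all measured genes. Vegfb, a ligand linked to lipid uptake by endothelium, had 257 and 61 counts (5.19 and 1.31 CPM) and was 3.96-fold lower (interval 2.98 to 5.32). Nrp1, a coreceptor, had 48 and 130 counts (0.970 and 2.80 CPM) and was 2.88-fold higher (interval 2.06 to 4.11), and Flt1, a VEGF receptor, had 163 counts in each library. Per kb, Vegfa made up 81.7% of the ligand level with vehicle and 92.3% with brequinar. The receptor Kdr had 10 and 4 counts, Vegfc had 0 in both, and 7 of 8 endothelial markers, Kdr among them, were below 1 CPM in both libraries with none at 0. The other, Pecam1, which leukocytes also express, stood at 25.1 and 6.76 CPM.

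Bnip3 differed in direction from its paralogue. Bnip3l, also called Nix, a mitophagy receptor that clears mitochondria in maturing red cells, stood at 152 and 193 CPM (log2 ratio 0.35, interval 0.30 to 0.39). Per kb, Bnip3 made up 23.7% of the 2 genes' summed level with vehicle and 11.7% with brequinar. The erythroid markers were higher in the same library, and their part in the level of Bnip3l was not tested. Of 14 measured mitophagy receptors and partners none was beyond 2-fold (median log2 ratio 0.06), beside 10.8% of all measured genes. A list of 14 genes is too short to tell this from that share. Pink1, a kinase that flags damaged mitochondria, had the largest absolute ratio (52.2 and 29.2 CPM, -0.84), and Fundc1, another receptor linked to hypoxia, stood at 27.5 and 28.1 CPM.

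Reads from overlapping genes could touch some members, since the sources used here do not give the strand setting of the counting. Of the annotated genes that overlap Hif1a, Arnt, Egln2 or Bnip3, those counted in the table had at most 5 counts in a library. Another 3 are not listed in the table, so their counts are unknown. In the annotation used, no gene overlaps Egln3, P4ha1, Vegfa, Vhl, Hif1an or Egln1. The gene counts do not separate isoforms of any member.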

How the data were processed

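The deposited table gives raw read counts for each gene, 1 column per library. Libraries were stranded, made from poly(A)-selected RNA and sequenced as paired ends of 101 bases, per the labels' protocols. Per the submitters' processing notes, the tools include STAR 2.4.2a and Picard 1.99 and 2.2.4, with build mm10. The sources used here name neither the counting program nor the annotation release. Reads on 4 lines that name no gene (21.6% and 20.2% of all) stayed out.

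Gene symbols and positions were taken from GENCODE mouse release 21 (GRCm38, the assembly mm10 names), matched by identifier (44585 of 45318). TMM scaling in edgeR 4.0.16 (R 4.3.3) gave CPM values, and log2 ratios used a prior count of 2. A gene entered if its mean reached 1 CPM, and calls were made at 2-fold. Fold changes were taken without the prior count. Intervals are exact (Clopper-Pearson, conditional on the summed count, 95%) and cover counting error only, since amplified reads are not independent molecules. The floor for a count of 0 was 3 counts. Members, lists, alternatives and the neighbour window were chosen with earlier results of these data known. Named genes were all members, those described within their families, and the list genes with the largest absolute log2 ratios. The classical targets well within 2-fold, the targets inside the limit, the single marker genes, and Ak4 were named after their values were seen. The procedure was tested on simulated counts. Python 3.11.15 was used.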

Additional observations from a re-analysis of the deposited data

How the results depend on the processing

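With 1 library per group no replicate could be left out. No paired analysis was possible because each group holds 1 library and no test was made. Egln3 stayed the single member beyond 2-fold under each scaling, prior count, filter and thinning, with log2 ratios from -3.14 to -3.03, and Bnip3 (-0.97 to -0.87) and P4ha1 (-0.79 to -0.70) stayed inside the limit. The library totals were nearly equal, so thinning could hardly change a call. At its counts (1288 and 144) Egln3 could not lose its call through the prior counts or filters used. Against total counts TMM shifts log2 ratios by 0.09.

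With total-count scaling the log2 ratios were -0.34 for Egln1, -0.14 for Egln2, -0.13 for Hif1a, -0.009 for Arnt and 0.10 for Vegfa, and the members' median was -0.14. List medians were then 0.033 for HIF regulators, -0.046 for metabolic targets, -0.0005 for all targets, -0.77 for collagen-type hydroxylases and -0.034 for mitophagy genes. With totals that left out the 50 most abundant and the mitochondrial genes, Egln1 was at -0.33, Hif1a at -0.12 and Vegfa at 0.11, and the medians were 0.045 for HIF regulators, -0.034 for metabolic targets, -0.76 for collagen-type hydroxylases and -0.022 for mitophagy genes. Under both of these and upper quartile scaling 2 collagen-type hydroxylases were lower.

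At 1.5-fold, 1456 of the 11504 measured genes were higher and 1463 lower, and at 3-fold 390 and 161. Of the 10 members, 3 were lower at 1.5-fold. List counts that changed little from those at 2-fold are mostly left out here. At 1.5-fold, 1 HIF regulator, 3 collagen-type hydroxylases and 1 mitophagy gene were lower, and 2 metabolic, 4 other and 6 targets in all were higher. The lower targets at 1.5-fold were the 5 beyond 2-fold together with Pdk1 (log2 ratio -0.88) and Car9 (-0.72). At 3-fold, 1 metabolic and 1 other target (2 in all) were lower, 1 other target was higher and 0 VEGF genes were higher. The metabolic target Slc2a3 (log2 ratio 3.73) also stayed higher at 3-fold. Without a filter 2470 genes were higher and 2074 lower. Then 2 HIF regulators, 6 other targets, 9 targets in all and 5 collagen-type hydroxylases were lower, 2 metabolic, 6 other and 8 targets in all were higher, and the medians were 0.031 for other targets and -0.93 for collagen-type hydroxylases. With a mean of at least 5 CPM, 457 genes were higher and 230 lower, 1 metabolic target and 3 targets in all were lower, and 0 VEGF genes were called in either direction. Fewer or more genes enter under these filters by construction.

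With the longest transcript as gene length, Hif1a made up 95.8% and 94.5% and Hif3a 3.93% and 5.39% of the alpha subunits. Egln1 then held 35.9% and 39.6%, Egln2 45.5% and 57.5%, and Egln3 18.6% of its family in the vehicle library. Bnip3 held 25.2% and 12.6%, and Bnip3l 74.8% and 87.4%. At these depths a single count is worth about 0.02 CPM, so genes such as Epas1, Kdr and P4ha2 carry wide counting intervals.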
